A study of Homo sapiens with 4 samples.

Results

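The circadian clock genes examined here are CLOCK, PER1, PER2, PER3, CRY1, CRY2, NR1D1, NR1D2, DBP and BHLHE40. They were taken by name from the table of read counts, and all 10 were found among its 59652 genes. The counts come from Huh7 and PLC cells, which are wild-type human hepatocellular carcinoma cell lines. Each line was kept for 48 h in glucose-free DMEM with 10% fetal bovine serum, to which either 5 mM (low) or 25 mM (high) glucose was added. There are 4 libraries, 1 for each line and glucose level, and no replicate of any condition. Neither the time of day of harvest nor any synchronisation of the cultures is given in the sources used here. The comparisons ask how the clock genes stood at high against low glucose within each line, and in PLC against Huh7 cells.

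The circadian clock is a loop of transcription factors that runs in nearly every cell, the hepatocyte included. CLOCK pairs with BMAL1 and binds E-boxes in promoters, which switches on the PER, CRY, REV-ERB, DEC and DBP genes. The PER and CRY proteins return to the nucleus and repress CLOCK and BMAL1, the REV-ERB receptors (NR1D1 and NR1D2) repress the BMAL1 gene against the ROR activators, and the DEC factors (BHLHE40 and BHLHE41) compete at E-boxes. DBP activates genes through D-boxes, and in the liver the loop times glucose, lipid and bile acid metabolism.

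Because these genes are tied together through promoter elements, the RefSeq promoters (GRCh38.p14, 250 bases before to 50 bases after a start site) were searched on both strands for 4 motifs. These were the E-box CACGTG, the D-box TTANGTAA, the ROR and REV-ERB element TAGGTCA and the cAMP element TGACGTCA, which share no matched bases in the promoters shown. The 10 genes have 14 such windows. The E-box was present for PER1, NR1D2 and BHLHE40, that is 3 of 10 genes, against 8.77% of all 27305 genes (7.26% of 35116 windows). The D-box was present for PER2, PER3 and NR1D2, also 3 of 10, against 2.71% of all genes (2.18% of windows). The ROR and REV-ERB element was found for CRY2 alone (2.29% of all genes), and the cAMP element (2.25%) for none of the 10. A match describes these letters and is no evidence of binding, and the CLOCK, CRY1, NR1D1 and DBP windows held none of the 4 motifs. Of the genes with differences described here, BHLHE40, NR1D2, PER2 and PER3 have an E-box or D-box in these windows, while NR1D1, DBP and CRY1 have neither. The windows of the E-box and D-box genes are shown with the matches in capitals. They lie at chr3:4979187-4979486 (plus strand), chr3:23945871-23946170 (plus strand, the downstream of 2 start sites), chr17:8152355-8152654 (minus strand), chr2:238288561-238288860 (minus strand) and chr1:7784041-7784340 (plus strand, the upstream of 2 start sites).
BHLHE40: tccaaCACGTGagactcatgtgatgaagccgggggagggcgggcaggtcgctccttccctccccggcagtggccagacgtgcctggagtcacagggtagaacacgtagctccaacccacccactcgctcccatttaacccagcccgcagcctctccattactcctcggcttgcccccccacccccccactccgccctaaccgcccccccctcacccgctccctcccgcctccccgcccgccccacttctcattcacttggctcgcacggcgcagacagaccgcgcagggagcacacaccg
NR1D2: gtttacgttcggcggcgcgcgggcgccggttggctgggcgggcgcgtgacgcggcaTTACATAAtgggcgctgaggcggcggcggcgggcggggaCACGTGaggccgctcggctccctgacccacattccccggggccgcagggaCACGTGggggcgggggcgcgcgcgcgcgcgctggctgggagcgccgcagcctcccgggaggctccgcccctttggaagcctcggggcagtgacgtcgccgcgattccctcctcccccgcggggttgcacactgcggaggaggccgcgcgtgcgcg
PER1: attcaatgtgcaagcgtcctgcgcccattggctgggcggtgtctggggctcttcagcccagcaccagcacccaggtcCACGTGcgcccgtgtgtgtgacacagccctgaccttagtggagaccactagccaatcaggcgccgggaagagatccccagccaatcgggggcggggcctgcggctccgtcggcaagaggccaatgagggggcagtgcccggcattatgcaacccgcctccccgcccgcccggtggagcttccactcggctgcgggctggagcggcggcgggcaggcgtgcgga
PER2: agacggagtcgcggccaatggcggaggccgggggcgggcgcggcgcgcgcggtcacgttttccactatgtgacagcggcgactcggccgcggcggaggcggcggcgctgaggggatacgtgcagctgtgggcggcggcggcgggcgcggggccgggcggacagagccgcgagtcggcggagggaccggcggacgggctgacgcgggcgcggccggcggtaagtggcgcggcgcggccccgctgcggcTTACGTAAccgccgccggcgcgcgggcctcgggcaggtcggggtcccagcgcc
PER3: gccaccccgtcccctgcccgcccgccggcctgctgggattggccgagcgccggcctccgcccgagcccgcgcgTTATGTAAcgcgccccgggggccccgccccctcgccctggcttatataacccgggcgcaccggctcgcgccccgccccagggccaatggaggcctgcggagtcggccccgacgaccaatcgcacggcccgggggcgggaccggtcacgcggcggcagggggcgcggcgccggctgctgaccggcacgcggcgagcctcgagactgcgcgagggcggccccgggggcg

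Reads counted on genes came to between 16049686 and 30279716 per library, and PLC cells at high glucose had the fewest. A floor of 3 reads stood for between 0.0991 and 0.187 CPM, which scales reads to the library total. FPKM divides the reads of a gene by its length and by the library total, so that genes can be set side by side. Of 8 hepatocyte markers, all exceeded 1 FPKM in both Huh7 libraries, 6 did so in PLC cells at low glucose and 7 at high glucose, and TTR had 4 and 0 reads in the PLC libraries. Their summed FPKM at low and high glucose was 5190 and 5389 in Huh7 cells, against 727 and 1609 in PLC cells. AFP carried much of the difference in PLC cells, at 306 and 1011 FPKM, while APOB had 220 and 231. The part of these markers in the clock gene values was not tested. Of 8 leukocyte, endothelial and fibroblast markers, at most 1 exceeded 1 FPKM in any library, with a summed level between 0.860 and 3.09 FPKM and CD3E at 0 reads throughout. TXNIP, a gene known to follow glucose, had 8 and 439 reads at low and high glucose in Huh7 cells. In PLC cells it had 26 and 18 reads, or 0.238 and 0.311 FPKM.

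All 10 clock genes were read in every library, and 9 of them exceeded 0.5 FPKM in both lines. The exception was PER3, which stayed under 0.1 FPKM in Huh7 cells. BHLHE40 had the highest level of the 10 in 3 of the libraries, from 24.1 to 49.5 FPKM, and NR1D2 the highest in Huh7 cells at high glucose, at 14.8 FPKM. The clock genes together held between 0.0435% and 0.0531% of the reads. In bulk RNA, a lower value from fewer expressing cells cannot be told apart from less RNA per cell.

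Of the 10 listed clock genes, BHLHE40 stood lowest at high against low glucose in Huh7 cells (ratio 0.517) and NR1D2 in PLC cells (ratio 0.43). Both code for repressors of the loop. DBP, an activator through D-boxes, had the highest ratio of the 10 in PLC cells (1.68) and PER1, another repressor of the loop, in Huh7 cells (1.42). A ratio here is FPKM at high glucose over FPKM at low glucose in 1 line, after 0.1 was added to both, and the thresholds were 1.5 and 0.67. In Huh7 cells only BHLHE40 passed, on the lower side, where 13.7% of the 21864 genes with FPKM over 0.5 in at least 1 library also passed, and 0 of 9 passed on the higher side (14.1% of all genes). The share of 1 in 9 is close to that of all genes. In PLC cells 3 genes passed on the lower side (NR1D2, NR1D1 and PER2), against 17.0% of 21749 genes. With libraries scaled by TMM or by DESeq2 size factors it was 5, with CRY2 (0.639 by TMM and 0.642 by DESeq2) and BHLHE40 added, and the share of all genes was not computed at those scalings. DBP alone passed on the higher side there, against 26.2%. None of the 10 was past a threshold on the same side in the 2 lines, where 3.82% of 18108 genes were lower and 5.3% higher in both. At those scalings BHLHE40 was, with ratios for Huh7 and PLC cells of 0.503 and 0.632 (TMM) or 0.506 and 0.635 (DESeq2). The median log2 ratio of the clock genes was -0.12 in Huh7 cells (9 genes) against -0.44 in PLC cells (10 genes), while the medians of all genes over 0.5 FPKM were 0.04 and 0.11.

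How well the reads fix each ratio was read from exact (Clopper-Pearson) 95% intervals, which cover counting error only and compare a pair of libraries, not the conditions. In Huh7 cells the interval lay below 1 for 6 of 9 clock genes (CLOCK, PER2, CRY1, NR1D1, NR1D2 and BHLHE40), against 19.4% of all genes, and above 1 for PER1 and CRY2, against 25.0%. In PLC cells it lay below 1 for 6 of 10 (PER2, CRY1, CRY2, NR1D1, NR1D2 and BHLHE40), against 22.7%, and above 1 for CLOCK and DBP, against 33.2%. More reads give a narrower interval, so these shares also depend on the reads per gene, and the genes compared were not matched for reads. With TMM scaling the PLC interval of CLOCK included 1 and that of PER3 lay below 1.

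CLOCK codes for the DNA-binding activator of the loop. It had 1713 reads at low and 2222 at high glucose in Huh7 cells, or 6.95 and 6.4 FPKM, and 3085 and 1878 reads in PLC cells, or 8.83 and 10.1 FPKM. Both PLC libraries were above both Huh7 libraries, and the highest level was 1.58 times the lowest. Its ratio stood at 0.923 (95% interval 0.865 to 0.982) in Huh7 cells, against 1.15 (1.08 to 1.22) in PLC cells. After TMM scaling the PLC ratio was 1.06, with an interval that included 1 (0.997 to 1.12). NPAS2, a paralogue that can stand in for CLOCK, held between 23.8% and 34.0% of the summed FPKM of the pair. Its ratios were 0.814 and 0.897 in Huh7 and PLC cells.

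BMAL1, listed in the table under its older symbol ARNTL, is the partner of CLOCK and the gene that REV-ERB represses. It had 90 and 137 reads at low and high glucose in Huh7 cells, or 0.607 and 0.657 FPKM, and 285 and 248 reads in PLC cells, or 1.36 and 2.23 FPKM. The ratio was 1.07 (0.823 to 1.43) in Huh7 cells, against 1.60 (1.38 to 1.95) in PLC cells. The paralogue ARNTL2 held between 83.0% and 87.1% of the FPKM of both genes, and its ratios were 1.23 and 1.48.

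The PER genes code for the repressors that CLOCK and BMAL1 drive, and their make-up differed between the lines. PER1 had 377 and 764 reads at low and high glucose in Huh7 cells, or 2.52 and 3.63 FPKM, and 789 and 415 reads in PLC cells, or 3.72 and 3.69 FPKM. Huh7 cells at low glucose stood lowest, with the other 3 libraries close together. The ratio was 1.42 (1.27 to 1.63) in Huh7 cells, against 0.993 (0.879 to 1.12) in PLC cells. PER1 had the highest ratio of the 10 listed clock genes in Huh7 cells, at percentile 83.6 of all genes over 0.5 FPKM.

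PER2 had 2219 and 2927 reads in Huh7 cells, or 15.1 and 14.2 FPKM, and 880 and 265 reads in PLC cells, or 4.23 and 2.40 FPKM. Both Huh7 libraries were above both PLC libraries. The glucose ratio was 0.938 (0.887 to 0.991) in Huh7 cells, against 0.578 (0.493 to 0.653) in PLC cells. PER2 in PLC cells was 0.28 times the Huh7 level at low glucose (0.259 to 0.303) and 0.17 times at high glucose (0.149 to 0.193).

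PER3, whose promoter window with a D-box is printed above, had 14 and 8 reads in Huh7 cells, or 0.0809 and 0.0328 FPKM, and 914 and 466 reads in PLC cells, or 3.73 and 3.59 FPKM. The lines did not overlap, and the level in PLC cells was 46.1 times that in Huh7 cells at low glucose (27.3 to 84.6) and 109 times at high glucose (55.0 to 254). The glucose ratio in PLC cells was 0.963 (0.859 to 1.08), and 0.888 (0.790 to 0.990) with TMM scaling. In Huh7 cells it was 0.734 with the added 0.1 and 0.406 without it, with an interval of 0.148 to 1.04 on so few reads. As a share of the summed PER FPKM, PER2 held 85.3% and 79.5% in Huh7 cells at low and high glucose, against 36.2% and 24.8% in PLC cells, and PER3 held 0.457% and 0.184% against 31.9% and 37.0%.

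The CRY genes code for the repressors that bind CLOCK and BMAL1 directly. CRY1 had 1531 and 1709 reads at low and high glucose in Huh7 cells, or 15.0 and 11.9 FPKM, and 1209 and 504 reads in PLC cells, or 8.35 and 6.57 FPKM. From highest to lowest the order was Huh7 at low glucose, Huh7 at high glucose, PLC at low glucose and PLC at high glucose. The ratios lay close together, 0.795 (0.740 to 0.850) in Huh7 cells, against 0.789 (0.707 to 0.873) in PLC cells.

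CRY2 had 736 and 1344 reads in Huh7 cells, or 5.55 and 7.21 FPKM, and 1127 and 411 reads in PLC cells, or 6.0 and 4.13 FPKM. The highest and the lowest level were both at high glucose, in Huh7 and PLC cells respectively. The ratio was 1.29 (1.19 to 1.42) in Huh7 cells, against 0.693 (0.613 to 0.771) in PLC cells. CRY1 made up 73.0% of the summed CRY FPKM in Huh7 cells at low glucose and between 58.2% and 62.2% in the other 3 libraries.

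NR1D1 and NR1D2 code for REV-ERB alpha and REV-ERB beta, nuclear receptors that bind haem and silence BMAL1. NR1D2 had 2307 and 2581 reads at low and high glucose in Huh7 cells, or 18.6 and 14.8 FPKM, and 1838 and 414 reads in PLC cells, or 10.5 and 4.45 FPKM. PLC cells at high glucose were the lowest of the 4 libraries. The ratio was 0.796 (0.751 to 0.841) in Huh7 cells, against 0.43 (0.381 to 0.473) in PLC cells, where it lay at percentile 7.15 of all genes over 0.5 FPKM, the lowest of the 10 clock genes. The NR1D2 window printed above held 2 E-boxes and 1 D-box, more matches than any other clock gene window.

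NR1D1 had 162 and 156 reads in Huh7 cells, or 2.88 and 1.97 FPKM, and 273 and 78 reads in PLC cells, or 3.43 and 1.85 FPKM. Both high-glucose libraries were below both low-glucose libraries. The ratio was 0.695 (0.546 to 0.858) in Huh7 cells, against 0.552 (0.414 to 0.696) in PLC cells. NR1D1 made up between 11.7% and 29.3% of the summed REV-ERB FPKM, and that sum at low and high glucose was 21.5 and 16.8 FPKM in Huh7 cells, against 13.9 and 6.30 FPKM in PLC cells. Of the exon bases of NR1D1, 18.0% (473 bases) are shared in position with THRA, the thyroid hormone receptor gene on the opposite strand. THRA had ratios of 1.35 and 2.33, above 1 where NR1D1 was below 1, and whether strand was used in the counting is not given in the sources used here.

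BHLHE40 (DEC1) codes for a repressor that binds E-boxes and also answers to signals from outside the clock. It had 1810 and 1312 reads at low and high glucose in Huh7 cells, or 24.1 and 12.4 FPKM, and 5269 and 1916 reads in PLC cells, or 49.5 and 34.0 FPKM. High glucose was below low glucose in each line, and both PLC libraries were above both Huh7 libraries. The ratio was 0.517 (0.479 to 0.553) in Huh7 cells, the lowest of the 10 listed clock genes there, and 0.687 (0.651 to 0.723) in PLC cells. Its antisense partner BHLHE40-AS1, which covers 12.8% of its exon bases, had at most 31 reads in a library.

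BHLHE41 (DEC2), the close paralogue of BHLHE40, was examined beside it. It had 78 and 23 reads in Huh7 cells, or 0.947 and 0.198 FPKM, and 1243 and 199 reads in PLC cells, or 10.7 and 3.22 FPKM. The ratio was 0.285 (0.126 to 0.337) in Huh7 cells, against 0.309 (0.259 to 0.351) in PLC cells, past the threshold in both lines. BHLHE40 nevertheless made up between 82.3% and 98.4% of the summed DEC FPKM, and that sum at low and high glucose was 25.0 and 12.6 FPKM in Huh7 cells, against 60.1 and 37.2 FPKM in PLC cells.

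DBP activates D-box genes and is a textbook output of CLOCK and BMAL1. It had 192 and 308 reads at low and high glucose in Huh7 cells, or 1.39 and 1.58 FPKM, and 701 and 631 reads in PLC cells, or 3.57 and 6.06 FPKM. Both PLC libraries were above both Huh7 libraries. The ratio was 1.13 (0.949 to 1.37) in Huh7 cells, against 1.68 (1.52 to 1.89) in PLC cells, the only ratio of the 10 listed clock genes past 1.5. SPHK2, on the opposite strand, shares 10.2% of its exon bases and had ratios of 1.10 and 1.38. Of the 3 PAR bZIP factors, DBP held between 9.17% and 27.3% of the summed FPKM and HLF between 59.8% and 81.9%, while TEF held 29.0% and 28.7% in Huh7 cells, against 1.01% and 1.07% in PLC cells. These shares depend on the gene lengths used, 6485 bases for DBP, 6776 for HLF and 4702 for TEF.

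A glucose difference averaged over the lines was tested over all genes in edgeR (quasi-likelihood test, Benjamini-Hochberg adjustment, line as a block). The model has no term for a glucose difference that varies between the lines, so a difference in only 1 line can carry a result. The lines stand in for replicates, and 1 residual degree of freedom was left. At an adjusted p-value under 0.05 edgeR called 0 of the 10 clock genes, where 0.314% of 23217 genes passed as lower and 0.0646% as higher at high glucose. With DESeq2 BHLHE40 passed, and with limma 0 did. An unadjusted p-value under 0.05 was reached by 3 clock genes (BHLHE40, NR1D2 and NR1D1), all lower, against 4.36% of all genes lower and 4.14% higher. The log2 fold change was -0.83 ± 0.22 (SE) for BHLHE40 (adjusted p = 0.159, edgeR), -0.86 ± 0.27 for NR1D2 (adjusted p = 0.271) and -0.80 ± 0.35 for NR1D1 (adjusted p = 0.540). Over 6 alternative fits the adjusted p-value of BHLHE40 ran from 0.0364 (DESeq2) to 1. The fold changes of 8 of the 10 were below 0, with a median of -0.45 against -0.01 over all genes tested, and those above 0 belonged to PER1 (0.18) and DBP (0.40).

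Of the 10 listed clock genes PER3 had the widest gap between the lines, followed by PER2, in opposite directions. In the same model with the glucose level as a block, edgeR called 6 of the 10 at the same threshold. Higher in PLC cells were 3 (PER3, DBP and BHLHE40), where 21.1% of all genes passed, and lower were 3 (PER2, NR1D2 and CRY1), where 21.8% passed, so each count lies near the share of all genes. The log2 fold change of PLC against Huh7 cells was 6.08 ± 0.42 (SE) for PER3 (adjusted p = 1.34e-07, edgeR), higher in 2 of 2 glucose levels. For PER2 it was -2.19 ± 0.27 (adjusted p = 2.44e-05, edgeR), lower in 2 of 2. DBP had 1.66 ± 0.29 (adjusted p = 0.000492), BHLHE40 1.25 ± 0.23 (adjusted p = 0.000610), NR1D2 -1.27 ± 0.27 (adjusted p = 0.00208) and CRY1 -0.84 ± 0.24 (adjusted p = 0.0112, all edgeR), each in the same direction at both glucose levels. Without the glucose block the adjusted p-value of NR1D2 was 0.0803, and over its 6 alternatives it ran from 1.35e-05 to that value. CLOCK had 0.51 ± 0.22 (adjusted p = 0.0823, edgeR), and PER1, CRY2 and NR1D1 had adjusted p-values of 0.423, 0.374 and 0.858 in that test. CRY2 was at 1.08 times the Huh7 level (0.984 to 1.19) at low glucose and 0.573 times (0.512 to 0.641) at high glucose. Each line was compared through 1 library per glucose level, so differences between the lines cannot be told apart from differences between these cultures.

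The wider clock was followed in 25 further genes, among them activators, ROR receptors, PAR bZIP factors, casein kinases, F-box proteins and the AMPK catalytic subunits. Of 22 tested for a glucose difference averaged over the lines, BHLHE41 alone passed. The log2 fold change of BHLHE41 was -2.02 ± 0.33 (SE, adjusted p = 0.0192, edgeR), and it was lower at high glucose in both lines. Its adjusted p-value was 0.0537 when at least 10 reads were required in every library, 1 without the cell line block, and under 0.05 in the other 4 alternatives. In Huh7 cells 1 of 21 genes over 0.5 FPKM passed the ratio threshold as lower (13.7% of all genes) and 0 as higher (14.1%). In PLC cells 4 of 20 passed as lower (17.0% of all genes) and 2 as higher (26.2%). The median log2 ratios were -0.01 and -0.19. The other genes past a threshold in PLC cells were NFIL3 (0.289), USP2 (0.413) and SIRT1 (0.597) on the lower side and PRKAA1 (1.81) and ARNTL on the higher side, named after their values were seen.

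Between the lines edgeR called 12 of the 22 tested, with 6 higher and 6 lower in PLC cells, where 21.1% of all genes were higher and 21.8% lower, so the counts lie near those shares. Those higher were the activators ARNTL (log2 fold change 1.47), ARNTL2 (1.17) and RORA (1.51), the E-box repressor BHLHE41 (3.73), the D-box activator HLF (0.91) and the PER-binding protein NONO (0.56). Those lower were TEF (-4.21), the AMPK subunit PRKAA1 (-1.58), the kinases GSK3B (-0.91) and CSNK1D (-0.62), TIMELESS (-0.62), and FBXL21P. FBXL21P had 137 and 276 reads in Huh7 cells but 0 in both PLC libraries, at least 64.7-fold higher in Huh7 cells at low glucose and at least 49.1-fold at high glucose against a floor of 3 reads per library. CSNK1D lost the call under 3 of its 6 alternatives and NONO under 2.

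Known clock outputs were looked at beside the loop itself. NAMPT, the enzyme of NAD salvage that CLOCK and BMAL1 drive, was named after its values were seen. It had ratios of 0.610 (0.577 to 0.639) and 0.677 (0.644 to 0.709), and 0.594 and 0.623 with TMM scaling. Of 10 outputs, 8 were over 0.5 FPKM in each line. By library totals, 2 of 8 passed the ratio threshold as lower in Huh7 cells (13.7% of all genes) and 2 of 8 in PLC cells (17.0%). None passed as higher (14.1% and 26.2% of all genes). KLF10 had ratios of 1.15 and 0.472 in Huh7 and PLC cells, and KLF9 of 0.896 and 0.680. WEE1, ALAS1, POR and PPARA had ratios between 0.863 and 1.28 in both lines, and CYP7A1 had no reads. These genes were also named after their values were seen.

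The genes whose pattern over the 4 libraries was most like that of a clock gene were found by distance in centred log2 FPKM among 9109 other protein-coding genes that had 100 reads or more in all 4 libraries. The nearest to BHLHE40 was PLK3, at a distance of 0.026 log2 units and with ratios of 0.543 and 0.680. The nearest to NR1D2 was ZCCHC8 (distance 0.127, ratios 0.758 and 0.402), and the nearest to PER2 was BCAT2 (0.155, ratios 0.952 and 0.595). PER3 and NR1D1 were under the read minimum. Among the clock genes themselves CLOCK and PER1 were the closest pair, at 0.512, and PER2 and PER3 the farthest apart, at 6.78, both with 0.1 added to FPKM. These distances rest on 4 libraries and describe likeness of values.

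In the positions of the table, the clock genes lie at chr4:55427903-55546909 (CLOCK), chr17:8140472-8156506 (PER1), chr2:238244044-238290102 (PER2), chr1:7784320-7845177 (PER3), chr12:106991364-107093549 (CRY1), chr11:45847118-45883248 (CRY2), chr17:40092793-40100589 (NR1D1), chr3:23945286-23980617 (NR1D2), chr19:48630030-48637379 (DBP) and chr3:4979437-4985323 (BHLHE40) of hg38. The span equals that of GENCODE release 44 for 9 of the 10, and PER3 starts elsewhere there. Besides NR1D1, DBP and BHLHE40, exon bases of PER3 are shared with UTS2 on the opposite strand (10.7%), which had at most 1 read in a library. For CLOCK, PER1, PER2, CRY1, CRY2 and NR1D2 the exon bases shared with any 1 gene were at most 2.74%.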

How the data were processed

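RNA of 2 cell lines at 2 glucose levels was depleted of rRNA and made into directional libraries. The deposited values are counts, that is, reads per gene without normalization, made by the authors. The submitters' processing notes name HISAT2, featureCounts and hg38; versions, annotation release and strand setting are not given in the sources used here. Of 59657 lines, 5 that hold a broken entry were left out. Groups came from the sample titles.

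FPKM was computed from counts, the table's gene lengths and library totals, which run from 16049686 to 30279716 reads. Merged exon lengths include rare isoforms, which lowers FPKM but not the ratio of a gene between libraries. Shares of a family's summed FPKM compare different genes, so they do depend on these lengths. Ratios had 0.1 added to both FPKM values. The thresholds were those of the study's methods, FPKM over 0.5 (here in at least 1 of 2 libraries) and a ratio over 1.5 or under 0.67. The 95% intervals were exact binomial intervals of the read share, without the 0.1. Tests used edgeR 4.0.16 (filterByExpr, TMM, quasi-likelihood, Benjamini-Hochberg over all genes, threshold 0.05); the standard error is the log2 fold change divided by the root of F. DESeq2 1.42.0 and limma 3.58.1 gave alternatives, as did RLE factors, other filters, no block, other pseudocounts and other scalings. The code was tested on simulated data. The clock genes and lists were chosen with earlier results of these data known. Named were all 10 clock genes, further clock genes past a threshold in both lines or a test, BMAL1, NPAS2 and BHLHE41, outputs past the thresholds in both lines, overlapping genes, nearest patterns and TXNIP. Some results that fall under this rule are not reported here. Promoters came from RefSeq.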

Additional observations from a re-analysis of the deposited data

Results flagged for a closer look

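CRY2 and CLOCK had ratios of high to low glucose on opposite sides of 1 in the lines, with counting intervals that excluded 1 in both. CRY2 had 1.29 in Huh7 cells but 0.693 in PLC cells, whereas CLOCK had 0.923 in Huh7 cells but 1.15 in PLC cells. Each line gave 1 library per glucose level, so these differences were not tested. With TMM scaling the CLOCK interval in PLC cells ran from 0.997 to 1.12, while that of CRY2 stayed below 1.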

How the results depend on the processing

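The cell line block of the glucose test pairs low and high glucose within each line. The sample titles carry no replicate numbers to pair by, and no replicate could be left out with 1 library per condition. Scaling by TMM shifted all log2 ratios by -0.04 (Huh7) or -0.12 (PLC), and DESeq2 size factors by -0.03 or -0.11. With ratios over 2 or under 0.5, 0 clock genes passed in Huh7 cells, against 1 in PLC cells. The share of all genes was not computed at these thresholds. With TMM or DESeq2 scaling 6 clock genes passed in PLC cells (1 higher and 5 lower) in place of 4, and 1 (BHLHE40) passed as lower in both lines, a count added after seeing the data. CRY2 and BHLHE40 in PLC cells crossed 0.67, the PLC interval of PER3 moved below 1, and by TMM that of CLOCK came to include 1. For the glucose difference averaged over the lines, DESeq2 called 1 clock gene. Of the further clock genes it was 2 without a filter on low counts (BHLHE41 and NFIL3), 0 with at least 10 counts in every library, and 0 without the cell line block. Over all genes the 88 calls became 526 without the filter, 27 with at least 10 counts, 0 without the block and 201 with DESeq2 (67 higher and 134 lower, against 15 and 73). Between the lines the 9969 calls became 6340 with at least 10 counts. RORA had a glucose log2 fold change of 0.11 averaged over the lines, and -0.0894 without the block. The causes were not tested. With at least 10 counts in every library, 16164 genes were tested in place of 23217. The precision is limited by the number of libraries and, for PER3 in Huh7 cells, by its 14 and 8 reads.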
